A study of Sus scrofa with 32 samples.

Results

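Transcripts of 5 genes of red blood cells and their precursors were followed in the liver of the pig fetus: HBE1 (NM_214447), EPOR (NM_214292), RHCE (NM_214378), AQP1 (NM_214454) and KCNN4 (NM_214018). These 5 genes of 1596 tested genes with a symbol, or of 28670 tested features in all, were matched by transcript accession to probes that are not controls. They were chosen by their fall over the day course in control livers, so the control values below are a description and carry no test. Each gene had 1 probe on the array, and each passed the background filter, by which some group had to show the probe clearly over background in 3 or more of its 4 livers. On 4 genes the signal was well above background on all 32 arrays, and on AQP1 on 30.

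In the fetus the liver is for a time the main site of red cell formation, before bone marrow takes over that role, so liver RNA holds transcripts of red cell precursors beside those of hepatocytes. The precursors divide under the hormone erythropoietin, fill with haemoglobin, build the red cell membrane and then lose their nucleus. HBE1 encodes epsilon globin, a beta-like chain of embryonic haemoglobin. EPOR is the erythropoietin receptor. RHCE carries Rh blood group antigens in the red cell membrane, AQP1 is the water channel of that membrane, and KCNN4 is the calcium-activated potassium channel through which red cells lose potassium and water. AQP1 is also known from endothelium and bile ducts, and KCNN4 from lymphocytes.

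Whole livers were sampled at gestational days 37, 50, 70 and 110 from gilts with 1 uterine horn and ovary removed, which crowded the litter, so controls and runts alike grew in such a uterus. At each day 4 control fetuses and 4 runts, growth-restricted fetuses described as littermates from distinct gilts, gave 1 single-colour array each, for 8 groups and 32 arrays. Controls and runts differ in growth and carry no genetic change or drug in the labels. A level is given on the log2 scale relative to the 75th percentile of its array, so 0 stands for a spot at that percentile, and levels of different genes are not set against each other because each probe has its own brightness. Between 51.3% and 69.4% of spots per array were well above background, replicate arrays correlated at 0.961 to 0.985, and 4 arrays a group limit the precision. Days 37, 50, 70 and 110 lay at array positions 1 to 4 of the slides, apart from 1 day 50 runt array alone on its slide at position 1, so day and position cannot be told apart. By their numbering the slides fell into 2 sets, slides 1 to 3 and slides 4 to 9, and both held control and runt arrays, in unequal numbers by group. The 75th percentile signal of an array was mostly lower in slides 1 to 3, at 177 to 366, than in slides 4 to 9, at 253 to 460. The sets overlapped only through day 110 runt replicate 3 (366), day 50 runt replicate 1 (253) and day 70 runt replicate 3 (277). All 9 hepatocyte markers measured, among them albumin and alpha-fetoprotein, were well above background on all 4 arrays of every group. Of 11 erythroid markers besides the members 1, the transferrin receptor TFRC, was tested, and its values stand with those of the iron genes.

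In all 5 red cell genes the larger part of the fall lay between days 70 and 110. Before that HBE1 already went from a mean of 4.4998 at day 37 to 2.90 at day 70 in controls and from 4.90 to 3.28 in runts, while RHCE went from 6.08 to 5.65 and from 5.79 to 5.76. In control livers the part of the day 37 to day 110 fall that lay after day 70 ran from 74.4% for HBE1 to 89.0% for RHCE. In runt livers it ran from 78.0% for HBE1 to 99.3% for RHCE. In these bulk samples fewer red cell precursors and less RNA per precursor cannot be told apart.

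**Figure D1:**
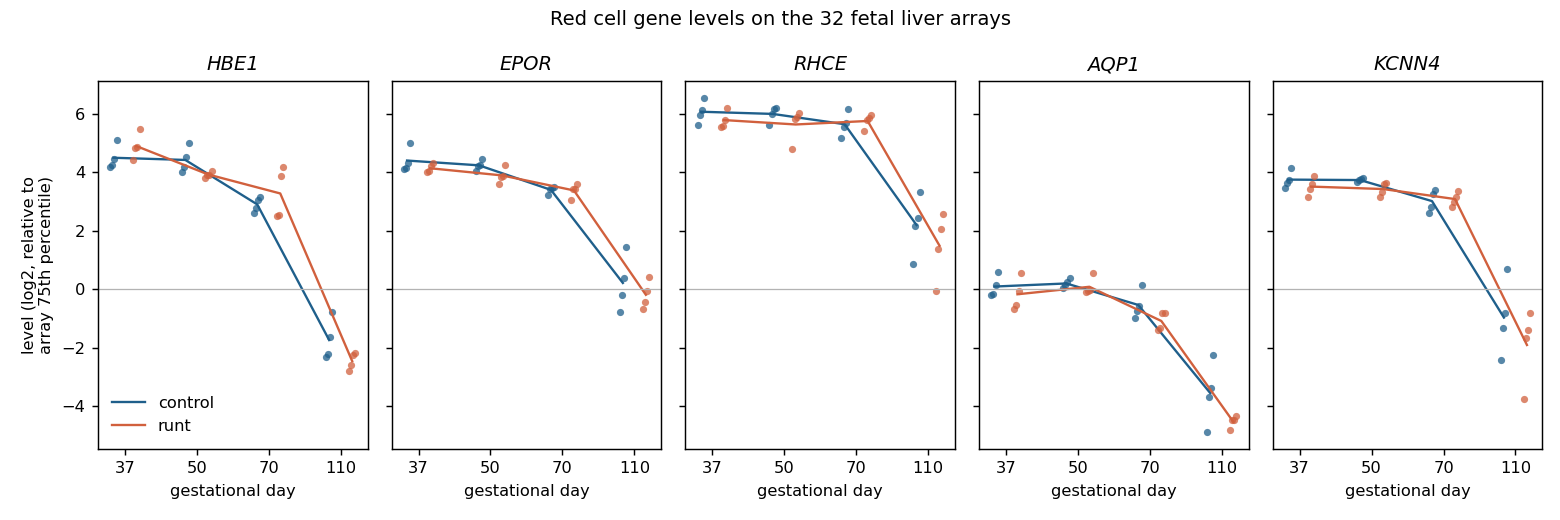
Level of each red cell gene (log2, relative to the 75th percentile of the array) against gestational day. Points are the 4 arrays of each group and lines join the group means of control (blue) and runt (orange) livers. For each gene every day 110 array lies below every array of the earlier days, and control and runt points overlap at most days.

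HBE1, the embryonic globin, had the largest change of the 5. Its level in control livers was 4.45, 4.26, 5.11 and 4.19 at day 37, 4.18, 4.51, 4.00 and 5.01 at day 50, 3.14, 2.79, 3.06 and 2.61 at day 70, and -1.62, -2.34, -0.80 and -2.21 at day 110. In runt livers it was 4.42, 4.82, 5.49 and 4.86 at day 37, 3.81, 3.91, 4.06 and 3.92 at day 50, 2.50, 4.19, 3.87 and 2.54 at day 70, and -2.80, -2.20, -2.25 and -2.59 at day 110. The day 110 arrays of either kind did not overlap with those of any earlier day, while day 37 and day 50 controls overlapped. The day 70 runts split, with replicates 2 and 3 within or above the day 50 runt range and replicates 1 and 4 just below the lowest day 70 control. From day 70 to day 110 HBE1 fell 53.4-fold in runts (95% interval 32.8 to 86.8, log2 change -5.74, SE 0.34, adjusted p = 4.95e-12, lower on 4 of 4 arrays). In controls the same difference was -4.64 (SE 0.34), or 25.0-fold. The day 50 to day 70 step was -1.52 (SE 0.34) in controls and -0.65 (SE 0.34, adjusted p = 0.169) in runts. Between days 37 and 50 HBE1 in runts differed by -0.97 (SE 0.34) and did not pass (adjusted p = 0.0529). It passed with slide as a random block (-1.04, adjusted p = 0.0207), as a fixed factor (-1.10, adjusted p = 0.0462), and without day 37 runt replicate 1 (-1.13, adjusted p = 0.0301).

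EPOR, which passes the erythropoietin signal into the precursor, had somewhat lower levels at day 70 than at day 50 in both kinds of liver, and far lower ones at day 110. Control levels were 5.01, 4.17, 4.31 and 4.13 at day 37, 4.25, 4.04, 4.21 and 4.46 at day 50, 3.42, 3.22, 3.49 and 3.47 at day 70, and 0.38, -0.20, 1.45 and -0.78 at day 110. Runt levels were 3.99, 4.21, 4.32 and 4.04 at day 37, 3.61, 3.85, 4.26 and 3.86 at day 50, 3.06, 3.43, 3.60 and 3.44 at day 70, and -0.07, 0.42, -0.42 and -0.69 at day 110. All day 70 arrays lay below all day 50 arrays of the same kind, and all day 110 arrays below all day 70 arrays. In controls the day 50 to day 70 difference was -0.84 (95% interval -1.45 to -0.23). The fall from day 70 to day 110 in runts was 11.9-fold (95% interval 7.79 to 18.2, log2 change -3.57, SE 0.30, adjusted p = 4.22e-10). In controls the difference was -3.19 (SE 0.30). In runts the day 37 to 50 step (-0.25, SE 0.30, adjusted p = 0.631) and the day 50 to 70 step (-0.51, SE 0.30, adjusted p = 0.213) did not pass.

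RHCE, the Rh antigen gene, was about level from day 37 to day 70. In controls it was 6.55, 6.14, 5.97 and 5.63 at day 37, 6.21, 6.17, 5.99 and 5.63 at day 50, 6.18, 5.54, 5.69 and 5.18 at day 70, and 2.44, 2.16, 3.33 and 0.85 at day 110. In runts it was 5.81, 6.22, 5.54 and 5.60 at day 37, 5.88, 5.83, 6.04 and 4.80 at day 50, 5.87, 5.78, 5.96 and 5.43 at day 70, and 1.38, 2.56, 2.05 and -0.05 at day 110. Days 37, 50 and 70 overlapped in both kinds of liver, and day 110 stood below them all. RHCE fell 19.3-fold in runts between days 70 and 110 (95% interval 10.5 to 35.6, log2 change -4.27, SE 0.43, adjusted p = 1.20e-08), against a difference of -3.45 (SE 0.43) in controls. Its earlier steps in runts were -0.15 (SE 0.43, adjusted p = 0.857) and 0.12 (SE 0.43, adjusted p = 0.870) and did not pass.

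AQP1, the water channel, was the 1 member with a step before day 70 that passed in runts. Control levels were 0.60, -0.17, -0.20 and 0.14 at day 37, 0.13, 0.37, 0.05 and 0.24 at day 50, 0.13, -0.74, -0.99 and -0.57 at day 70, and -3.39, -3.70, -2.24 and -4.89 at day 110. Runt levels were -0.67, -0.53, 0.56 and -0.05 at day 37, 0.54, -0.07, -0.04 and -0.10 at day 50, -0.82, -1.39, -0.82 and -1.33 at day 70, and -4.84, -4.35, -4.46 and -4.49 at day 110. All 4 day 70 runts lay below all 4 day 50 runts, while in controls day 70 replicate 1 lay within the day 50 range. Between days 50 and 70 in runts AQP1 fell by 1.17 on the log2 scale or 2.25-fold (95% interval 1.37 to 3.71, SE 0.35, adjusted p = 0.0154). That call was lost without day 50 runt replicate 1, the array alone on its slide and the highest of its group (-1.02, adjusted p = 0.0510). Within slides 1 to 3 both days had 1 runt array, and the change there was -1.22, from which no call is drawn. From day 70 to day 110 AQP1 fell 10.9-fold in runts (95% interval 6.61 to 18.0, log2 change -3.45, SE 0.35, adjusted p = 1.61e-08), and the control difference was -3.02 (SE 0.35). At day 110 replicate 4 of either kind was not well above background, so these day 110 levels are near the lower limit of the measurement.

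KCNN4, the potassium channel, was steady to day 50. Control levels were 4.15, 3.75, 3.65 and 3.46 at day 37, 3.76, 3.72, 3.80 and 3.66 at day 50, 3.38, 2.80, 3.26 and 2.62 at day 70, and -0.82, -1.33, 0.68 and -2.42 at day 110. Runt levels were 3.43, 3.60, 3.86 and 3.17 at day 37, 3.60, 3.32, 3.64 and 3.15 at day 50, 3.00, 3.16, 3.37 and 2.81 at day 70, and -1.40, -0.80, -1.68 and -3.76 at day 110. The day 110 arrays spread over more than 3 log2 units in controls, yet the highest of them still lay below every array of the other days. KCNN4 fell 31.9-fold in runts between days 70 and 110 (95% interval 16.5 to 61.6, log2 change -5.00, SE 0.46, adjusted p = 2.96e-09). Without day 110 runt replicate 4, the lowest array, the change was -4.38. The control difference was -3.99 (SE 0.46). The earlier steps in runts, -0.08 (SE 0.46, adjusted p = 0.930) and -0.34 (SE 0.46, adjusted p = 0.630), did not pass.

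The genes were chosen on the control course, so the runt course is the same measure in other arrays, although runts and controls were littermates and shared array positions. Earlier results of these data were also known when the genes were chosen, so the runt arrays are not a wholly separate check. Between days 70 and 110 in runts 5 of 5 members fell, with a median of -4.27, where 6.81% of all 28670 features fell and the median of all features was 0.05. From day 37 to day 110 again 5 of 5 fell, from -4.30 for RHCE to -7.36 for HBE1 (adjusted p 6.44e-15 to 3.25e-09), against 12.2% of all features. Between days 50 and 70 the count was 1 of 5, AQP1, against 4.79%. Between days 37 and 50 it was 0 of 5 by limma, against 0.844%, with 1 of 5 at an unadjusted p under 0.05, where 29.7% of all features were. Within slides 1 to 3, where 1 day 70 runt array stood against 2 day 110 runt arrays, the changes from day 70 to day 110 in runts were -4.96 for HBE1, -3.99 for EPOR, -4.42 for RHCE, -3.15 for AQP1 and -5.53 for KCNN4. Within slides 4 to 9 they were -6.02, -3.19, -3.90, -3.59 and -4.28 in the same order, from 3 and 2 arrays, and 5 of 5 passed. In slides 1 to 3 the fit had 4 residual degrees of freedom and takes the lone day 70 array to vary like the other groups, so no call is drawn from it. With another background correction, normexp, all 5 still passed but the changes were smaller, -4.49 for HBE1, -3.81 for KCNN4 and -1.69 for AQP1.

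**Figure D2:**
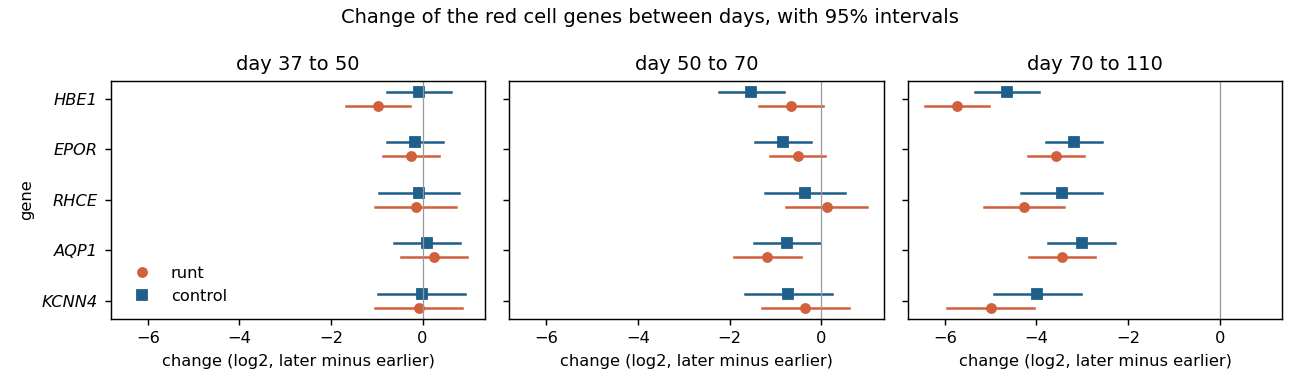
Change of each red cell gene (log2, later day minus earlier day) over the 3 steps of the day course. Points are differences of group means and bars 95% intervals of the fit, in runts (orange circles) and controls (blue squares, a description because controls chose the genes). The last step lies between -3.02 and -5.74 for every gene, while most earlier steps have intervals that reach 0.

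Ordered by group mean, the lowest 2 groups of every member were day 110 control and then day 110 runt, and day 110 control did not overlap with the group above it. Among the 6 earlier groups most neighbours in the order overlapped. The 1 other gap between neighbours was in EPOR, where the day 50 runts lay above the day 70 controls. How many of all features had such gaps was not counted.

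Whether growth restriction shifted these genes was tested by comparing runts with controls at each day, and 0 of 5 passed at any day by limma. The control arrays compared are those by which the genes were chosen, which the p-values do not allow for. At day 37 the differences ran from -0.29 for RHCE to 0.40 for HBE1, with 0 of 5 at an unadjusted p under 0.05 (2.53% of all features), where 0% of all features passed. At day 50 all 5 were below 0, from -0.50 for HBE1 to -0.11 for AQP1, as were 53.3% of all features. Again 0 of 5 were at an unadjusted p under 0.05 (7.38% of all features), where 0.0663% of all features passed. For KCNN4 (-0.31) all 4 day 50 runts lay below all 4 controls, and the other 4 genes overlapped. The share of all features with such separation was not counted at any day, so nothing is drawn from it. With normexp 4 of 5 passed at day 50, HBE1 at -1.24 (adjusted p = 0.0138), EPOR at -1.10, RHCE at -1.15 and KCNN4 at -0.96, a setting under which 17055 of all features passed. At day 70 they ran from -0.55 for AQP1 to 0.37 for HBE1, with 0 of 5 at an unadjusted p under 0.05 (1.82% of all features) and 0% of features passing.

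At day 110 all 5 members were lower in runts on average, as were 43.6% of all features. The members varied together at this day, as described below, so their 5 signs are not separate results. By limma 0 of 5 passed where 0.014% of all features did. At an unadjusted p under 0.05 there were 2 of 5, against 4.40% of all features. HBE1 differed by -0.72 (95% interval -1.42 to -0.02, unadjusted p = 0.0446, adjusted p = 1.00). AQP1 differed by -0.98 (95% interval -1.70 to -0.26, unadjusted p = 0.00973, adjusted p = 0.908). KCNN4 was at -0.94 (95% interval -1.89 to 0.01), RHCE at -0.71 (-1.59 to 0.17) and EPOR at -0.41 (-1.02 to 0.21). Runt and control arrays overlapped for all 5. The 95% intervals leave room for a level in runts up to 3.70-fold lower for KCNN4 and 2.02-fold lower for EPOR, so the test does not show that the levels were alike. The fit gives each gene 1 spread over all 8 groups. For KCNN4 the SD was 1.29 in controls and 1.28 in runts at day 110, against 0.36 and 0.24 at day 70. For members more widely spread at day 110, these intervals may be too narrow and the p-values too small. The differences depended on the slides and on single arrays. Within slides 4 to 9 the 5 differences were -0.91 for HBE1, -0.37 for EPOR, -0.67 for RHCE, -1.48 for AQP1 and -0.61 for KCNN4. Within slides 1 to 3, with 1 control and 2 runts, they were -0.21, 0.22, 0.15, 0.42 and -0.30 in that order. Without day 110 control replicate 3, the array with the highest level of every member, they were -0.41 for HBE1, 0.01 for EPOR, -0.33 for RHCE, -0.54 for AQP1 and -0.39 for KCNN4. Without control replicate 4 all 5 lay further below 0, with EPOR at -0.74, RHCE at -1.16, AQP1 at -1.42 and KCNN4 at -1.42. Without runt replicate 4 EPOR was at -0.24, RHCE at -0.20 and KCNN4 at -0.32, and without runt replicate 2 EPOR was at -0.61 and RHCE at -1.07. With normexp HBE1 was at -0.39, AQP1 at -0.25 and KCNN4 at -0.52.

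**Figure D3:**
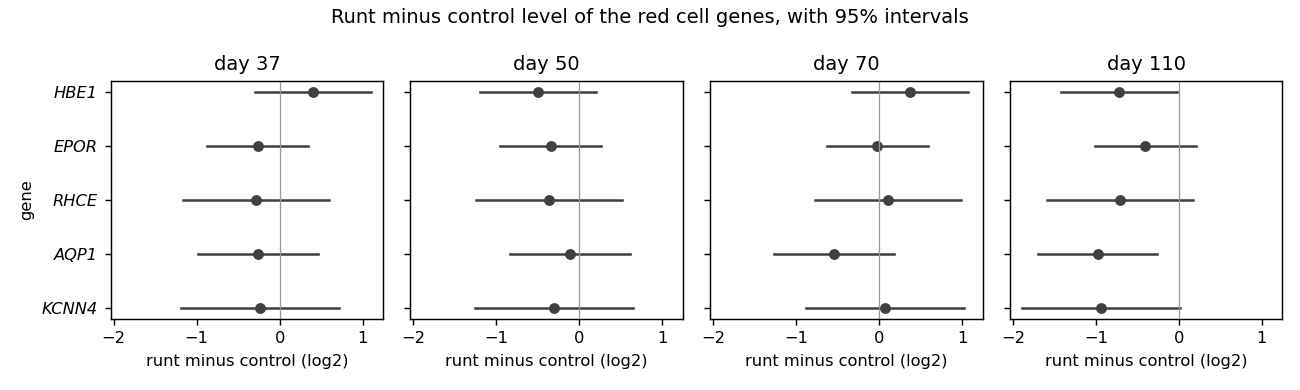
Runt minus control level of each red cell gene (log2) at the 4 days. Points are differences between means of 4 arrays and bars 95% intervals of the fit, not adjusted for the number of features. At day 110 all 5 points lie below 0, from -0.41 to -0.98, as do 43.6% of all features, and at day 70 the points lie on both sides.

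Over the mean of the 4 days all 5 members were below 0 in runts, as were 49.6% of all features. The members ran from -0.11 for HBE1 to -0.48 for AQP1 (SE 0.18, adjusted p = 0.335 by limma). Of the members 0 of 5 passed against 0.248% of all features, with 1 of 5 at an unadjusted p under 0.05 (9.09% of all features). With normexp 3 of 5 passed over the mean of days, EPOR at -0.54, RHCE at -0.63 and KCNN4 at -0.50. Normexp moved the median of all features in this comparison to 0.19. Over the settings tried, as many as 13896 of all features passed in this comparison, against 71 as reported. The change from day 70 to day 110 in runts minus that in controls was -1.09 for HBE1 (SE 0.48, unadjusted p = 0.0318, adjusted p = 1.00), -0.39 for EPOR, -0.82 for RHCE, -0.43 for AQP1 and -1.01 for KCNN4. These differences did not pass by limma (0 of 5, and 0% of all features), with 1 of 5 and 1.73% of all features at an unadjusted p under 0.05. For the fall from day 37 to day 110 the differences ran from -1.12 for HBE1 to -0.14 for EPOR, with 0 of 5 and 0% of all features passing, and 1 of 5 and 1.86% of all features at an unadjusted p under 0.05. In both sets of differences the control fall is the one by which the genes were chosen, which the p-values do not allow for.

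The members varied together from fetus to fetus at day 110. Day 110 control replicate 3 had the highest level of its group in 5 of 5 members and control replicate 4 the lowest in 4 of 5, all but HBE1. Among day 110 runts, replicate 2 was the highest in 5 of 5 and replicate 4 the lowest in 3 of 5 (EPOR, RHCE and KCNN4). Deviations from the group mean over these 8 arrays correlated at 0.69 to 0.96 between pairs of members, with RHCE and KCNN4 the closest pair. Over the 24 arrays of the earlier days the same correlations were 0.07 to 0.71. These are descriptions, since arrays of a slide share its scan and each array its scaling. Control replicate 4 and runt replicate 4 were on slides 1 to 3 and also had the lowest shares of spots well above background among day 110 arrays, 58.2% and 57.2% against 63.4% to 68.5%, and the part of this in the result was not tested.

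The spread within groups was wider at day 110 than at earlier days for several members. In day 110 controls the SD was 0.70 for HBE1, 0.95 for EPOR, 1.03 for RHCE, 1.09 for AQP1 and 1.29 for KCNN4 (n = 4 each), where the median SD of all features was 0.31 and 4 of 5 members were above the 90th percentile of 0.78. In day 110 runts RHCE (1.13) and KCNN4 (1.28) were above that percentile of their group (0.77), while AQP1 had an SD of 0.21. Before day 110 the members' SDs ran from 0.06 to 0.88. The fit gives each gene 1 spread over all groups. For members more widely spread at day 110, its intervals for comparisons with day 110 arrays may thus be too narrow.

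**Figure D4:**
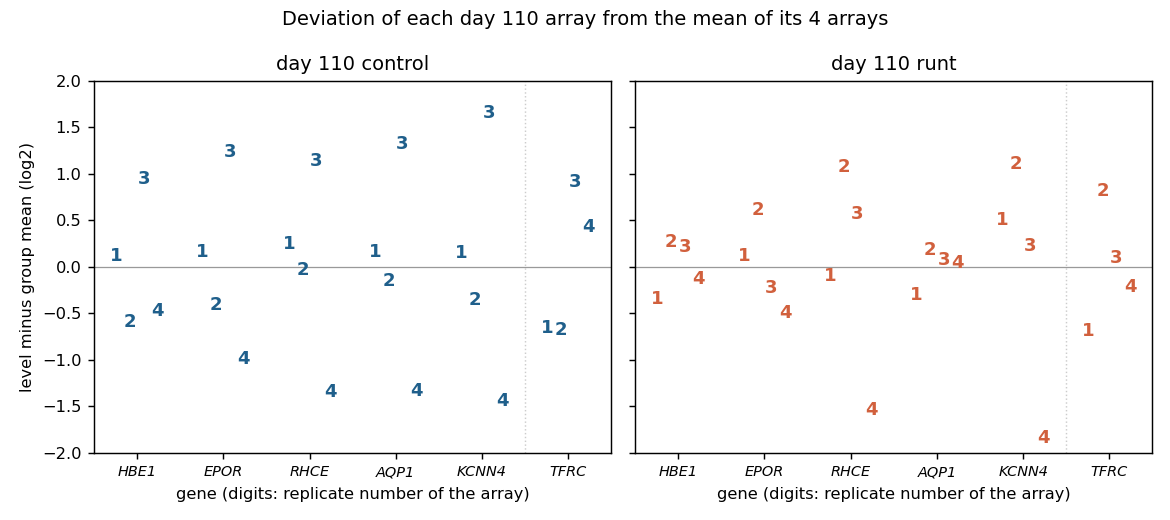
Deviation of each day 110 array from the mean of its 4 arrays (log2) for the 5 red cell genes and, right of the dotted line, the transferrin receptor TFRC. Digits are replicate numbers, which have no order. Among controls replicate 3 is the highest for all 6 genes, and among runts replicate 4 is the lowest for EPOR, RHCE and KCNN4.

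Other genes of red cell formation were taken from 9 lists that together name 180 genes besides the members, of which 37 were on the array by accession and 35 were tested. In runts between days 70 and 110, 6 of the 35 fell, 1 rose and 28 did not pass, with a median of -0.32. Fallen listed genes were thus 17.1% of those tested, beside 6.81% of all features lower and 4.31% higher. From day 37 to day 110 in runts 11 fell (31.4%), 4 rose and 20 did not pass, beside 12.2% of all features lower and 14.8% higher. Between runts and controls 0 of the 35 passed by limma at any day or over the mean of days. At an unadjusted p under 0.05 were 0, 2, 0, 3 and 2 at days 37, 50, 70 and 110 and over the mean. Of all features 2.53%, 7.38%, 1.82%, 4.40% and 9.09% were, in the same order. The globin list could not be described further, since none of its other 11 genes was matched on the array.

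In the haem synthesis list ALAS1, the first enzyme of the pathway in cells other than red cells, was at 0.67 and under the 2-fold threshold. In the iron list of 4 tested genes TFRC, the transferrin receptor by which precursors take up iron, fell by 3.70 (SE 0.29, adjusted p = 1.92e-10, well above background on 2 of 4 runt arrays at day 110), and 3 did not pass. The sizes for TFRC and BCL2L1, described next, rest in part on day 110 signals not well above background, so they are imprecise. Among day 110 controls TFRC was highest in replicate 3 (-2.57), as the 5 members were. Replicate 4, the lowest control for most members, was at -3.05, above replicates 1 (-4.13) and 2 (-4.16). Among day 110 runts TFRC was highest in replicate 2 (-3.57), as the members were. Its lowest runt was replicate 1 (-5.08), with replicate 4 at -4.61.

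Of 8 tested genes of erythropoietin and stem cell factor signalling 3 fell, 1 rose and 4 did not pass. The survival gene BCL2L1 fell by 2.17 (adjusted p = 0.00143, well above background on 1 of 4 runt arrays at day 110), the stem cell factor receptor KIT by 1.56 (adjusted p = 0.00479) and the transcription factor STAT5A by 1.36 (adjusted p = 2.67e-05). SOCS2, a feedback inhibitor of cytokine and growth hormone receptors, rose by 3.102 (SE 0.23, adjusted p = 5.33e-11) and by 3.23 at its other probe. EPO itself, the ligand of EPOR, was at -0.55 (adjusted p = 0.448), and JAK2, the kinase bound to the receptor, at -0.66 (adjusted p = 0.00446, under 2-fold).

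Among 4 tested erythroid transcription factor genes LDB1, a bridging cofactor, fell by 1.33 (adjusted p = 6.15e-07) and by 1.48 at its other probe, and 3 did not pass. In the late maturation list of 5, FBXO7, a ubiquitin ligase subunit, fell by 1.80 (adjusted p = 6.17e-08), BCL2L1 counted there too, and 3 did not pass. In 3 further lists 0 genes passed by limma at 2-fold. They were membrane and skeleton (0 of 3, median -0.16, 1 at an unadjusted p under 0.05), ion and volume control (0 of 5, median 0.48, 4 at an unadjusted p under 0.05) and red cell enzymes and antioxidants (0 of 6, median -0.29, 4 at an unadjusted p under 0.05). Of all features 35.1% had an unadjusted p under 0.05 at this step. By limma 3 of the ion and volume genes and 4 of the enzymes had an adjusted p under 0.05 but changed less than 2-fold.

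**Figure D5:**
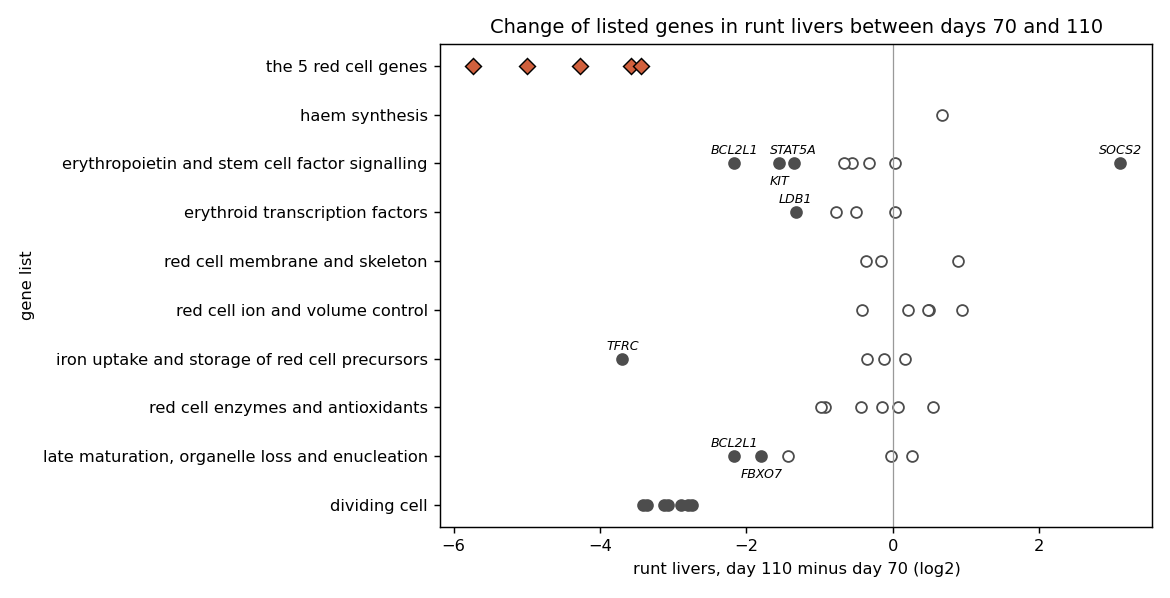
Change in runt livers from day 70 to day 110 (log2) of the 5 red cell genes (diamonds), the tested genes of 8 lists of red cell formation, and dividing cell markers (circles). Filled circles passed at an adjusted p under 0.05 and at least 2-fold. Members lie from -3.45 to -5.74, dividing cell markers from -2.74 to -3.41, and in the other lists TFRC reaches past -3.

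Markers of other cells moved over the same step, at which 6.81% of all features fell and 4.31% rose in runts by the same thresholds. All 7 dividing cell markers fell in runts (median -3.08), from -2.74 for MCM3 to -3.41 for CCNB1, and their summed level on an array ran from 6.36 to 6.63 at day 70 and from 3.22 to 3.67 at day 110. In controls the summed level ran from 6.28 to 6.74 and from 3.06 to 4.52, with the same replicates 3 and 4 at the top and the bottom at day 110. Their part in the fall of the members was not tested. Of 9 hepatocyte markers 0 passed by limma over this step (median -0.37, 2 at an unadjusted p under 0.05, beside 35.1% of all features), with summed levels of 11.5 to 12.2 and 11.05 to 11.6 in runts at the 2 days. Between runts and controls albumin was lower in runts over the mean of the 4 days (-1.53, SE 0.29, adjusted p = 0.0223 by limma), and 8 hepatocyte markers did not pass. Day by day albumin differed by -2.53 at day 37, -2.73 at day 50, -0.36 at day 70 and -0.50 at day 110, and did not pass at any of them.

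The shares of all features for the counts in this paragraph are 4.31% higher and 6.81% lower. Beside AQP1, 3 of 9 endothelial markers rose, the Fc receptor FCGR2B (2.89), caveolin CAV1 (1.37) and nitric oxide synthase NOS3 (1.04), and 1 fell, the adhesion molecule SELP (-1.32). The summed endothelial level ran from 4.88 to 5.18 at day 70 and from 5.64 to 6.20 at day 110 in runts. In the bile duct list 2 of 5 rose, EPCAM (1.08) and the chloride channel CFTR, and 0 fell, with sums of 3.88 to 4.27 and 4.42 to 4.57. Beside KCNN4, 2 of 10 lymphocyte markers rose, CD3G (2.46, well above background on 2 of 4 day 70 runt arrays) and CD2, and 0 fell, with sums of 0.62 to 0.80 and 1.03 to 1.20. CFTR and CD2 were not well above background on any day 70 runt array, so no fold is given for them. In controls the endothelial sums ran from 5.0025 to 5.13 at day 70 and from 5.70 to 6.12 at day 110. The bile duct sums overlapped there, at 4.10 to 4.35 and 4.17 to 4.45, as did the lymphocyte sums, at 0.57 to 4.79 and 0.65 to 1.04. The part of these cells in the fall of AQP1 and KCNN4 was not tested.

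The genes most like each member over the 32 arrays were sought among 1573 others with a symbol, as a description with no test. HBE1 was closest to PLAGL1 (r = 0.986), CCNB1 (0.984) and BIRC5 (0.984). EPOR was closest to BIRC5 (0.991), HMGB2 (0.991) and SPAG5 (0.990). RHCE was closest to RBM38 (0.984), SPINK4 (0.982) and PHACTR3 (0.978). AQP1 was closest to BIRC5 (0.976), KCNN3 (0.968) and ASF1B (0.968), and KCNN4 to SPINK4 (0.990), PHACTR3 (0.987) and ASF1B (0.987). CCNB1, BIRC5 and SPAG5 are known from cell division, HMGB2 is a chromatin protein of dividing cells, and ASF1B is a histone chaperone.

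Much of this likeness is the step to day 110 that these arrays share, and from 48 genes (for RHCE) to 81 (for HBE1 and EPOR) had r above 0.9. With the group means taken out, the correlation with the closest gene was 0.48 for HBE1 and PLAGL1, 0.81 for EPOR and BIRC5, 0.83 for RHCE and RBM38, 0.77 for AQP1 and BIRC5 and 0.89 for KCNN4 and SPINK4. Counting members among the others, KCNN4 was the gene most like RHCE of 1577, while RHCE ranked 52 for HBE1.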

How the data were processed

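Total RNA of 32 livers was hybridised to single-colour Agilent arrays. Per the file headers the scanner software was Feature Extraction 10.7.3.1, and its processed signal is a background-subtracted intensity that was not normalized between arrays. A table of log2 values from the authors is deposited too, and Partek stands in the submitters' processing notes. That table's column medians were 5.148 to 5.153, its log2 scale and centring follow from setting it against the scanner values (r 0.993 to 1.00), and it served as an alternative. Which aligner or genome build placed the probes is not given in the sources used here, so no positions are given.

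From the intensities the log2 processed signal minus the array's 75th percentile was computed, without control and outlier spots, and duplicate spots were averaged. Of 43603 probes 2683 were named through the transcript accession and RefSeq's table for Sscrofa11.1. The probe with the highest mean stood for a symbol. R 4.3.3 and limma 3.58.1 fitted 8 group means over the 32 arrays (24 residual degrees of freedom), with Benjamini-Hochberg adjustment over 28670 features and two-sided tests. Calls between days needed an adjusted p under 0.05 and 2-fold, and runt comparisons an adjusted p under 0.05. The fit was tested on simulated data. Genes are named by 3 rules: the members, listed genes that pass in runts between days 70 and 110 or between runt and control (up to 4 a list), and for each member the 3 genes of highest correlation. EPO, JAK2 and ALAS1 were added after their values were seen. 1 gene is not reported here and is left out of the counts of listed and like genes. The members and lists were chosen with earlier results of these data known. Alternatives were other scalings and background corrections, background filters, slide and replicate blocks, slide sets, the arrays of the groups compared alone, the fold threshold and leaving out each array.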

Additional observations from a re-analysis of the deposited data

Results flagged for a closer look

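Of the 40 groups of 4 arrays (5 genes in 8 groups) 1 held an array far from the other 3 by the gap between the outermost array and its neighbour, against Dixon's critical value, and chance gives about 1 in 20 such groups. In day 50 runts the AQP1 level of replicate 1 was 0.54 (0.5445), while the next of the group was -0.04, so the gap was 0.899 of the group's range. This array was alone on slide 9 and at array position 1, where the other day 50 arrays were at position 2. Without it the fall of AQP1 between days 50 and 70 in runts was -1.02 and no longer passed (adjusted p = 0.0510).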

How the results depend on the processing

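The fall of 5 of 5 members in runts from day 70 to day 110 and from day 37 to day 110 held with each of 8 arrays left out in turn. It also held under the other settings. Slides 1 to 3 alone are left aside here, since they had 1 day 70 runt array and no call is drawn from them. At the other end, 0 of 5 passed at days 37, 70 and 110 and in both differences of the fall between runts and controls under every one of these settings. From day 37 to day 50 in runts the count rose from 0 to 1 (HBE1) with normexp and with slide as a random block or a fixed factor, and was 0 to 1 with 1 array left out. From day 50 to day 70 it fell from 1 (AQP1) to 0 with normexp, and was 0 to 1 with 1 array left out. With normexp 4 of 5 members passed between runts and controls at day 50 and 3 of 5 over the mean of days. Normexp, used on the median signals because the files hold no mean signal, was chosen after seeing the files. It also moved the median of all features, to 0.41 (from -0.02) between runts and controls at day 50, where 17055 features passed against 19, and to 0.34, -0.27 and -0.25 over the 3 steps in runts. Between runts and controls over the mean of days that median moved to 0.19 (from 0.0015). The cause was not tested.

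Over all features the counts ranged over the settings from 0 to 4380 for days 37 to 50 in runts (1672 as reported), 0 to 7358 for days 50 to 70 (2288), 1214 to 7024 for days 70 to 110 (3188) and 3637 to 14348 for days 37 to 110 (7760). Between runts and controls they ranged from 0 to 11 at day 110 (4) and 0 to 13896 over the mean of days (71).

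Signs turned only in differences that did not pass, and the cause was not tested. With normexp KCNN4 from day 50 to 70 was 0.0862, the day 70 runt differences of RHCE and KCNN4 were -0.19 and -0.19, the difference of the day 70 to 110 fall was 0.0783 for AQP1, and that of the day 37 to 110 fall 0.13 for EPOR. From day 37 to 50 RHCE and KCNN4 were 0.0442 and 0.10 with quantile normalization and 0.0257 and 0.10 in the deposited table, and RHCE from day 50 to 70 was -0.15 and -0.13. KCNN4 at day 70 was -0.0708 with slide as a random block. With slide as a fixed factor EPOR, AQP1 and KCNN4 at day 37 were 0.12, 0.11 and 0.15, and RHCE and KCNN4 at day 70 -0.0878 and -0.33. Within slides 1 to 3 AQP1 from day 37 to 50 was -0.35. There the runt differences at day 37 were 0.0506 for EPOR, 0.11 for AQP1 and 0.0506 for KCNN4, and at day 70 -0.30 for HBE1, -0.0095 for RHCE and -0.13 for KCNN4. At day 110 they were 0.22 for EPOR, 0.15 for RHCE and 0.42 for AQP1. The difference of the day 70 to 110 fall was 0.0862 for HBE1, 0.27 for EPOR, 0.16 for RHCE and 0.96 for AQP1, and that of the day 37 to 110 fall 0.17 for EPOR, 0.22 for RHCE and 0.31 for AQP1. Within slides 4 to 9 KCNN4 from day 37 to 50 was 0.0093, RHCE from day 50 to 70 -0.0473, EPOR at day 70 0.0429 and EPOR in the day 37 to 110 fall 0.0225.

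With 1 array left out in turn, KCNN4 from day 37 to 50 ranged from -0.20 to 0.0319, RHCE from -0.29 to 0.13, and RHCE from day 50 to 70 from -0.16 to 0.25. At day 70 runt differences ranged from -0.0612 to 0.19 for KCNN4, -0.0912 to 0.0865 for EPOR and -0.0452 to 0.29 for RHCE, and at day 110 from -0.74 to 0.007 for EPOR. The difference of the day 70 to 110 fall ranged from -0.72 to 0.0265 for EPOR and from -0.88 to 0.0083 for AQP1. That of the day 37 to 110 fall ranged from -0.47 to 0.27 for EPOR and from -0.87 to 0.0879 for RHCE.

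The replicate number as a block changed no count of members, with 5 of 5 from day 70 to day 110, 5 of 5 from day 37 to day 110, and 0 of 5 between runts and controls at each day. The labels do not say that a number marks a litter, and same-numbered deviations correlated at -0.09 to 0.43, above 0.1 in 13 of 16 pairs, with 8 of 16 controls closest to their own number. Other probes could not be tried, since each member has 1. The 4 arrays a group and, for AQP1 at day 110, signal near background limit the precision of these values.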
